A study of Mus musculus with 20 samples.

Results

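The nuclear genes of the mitochondrial respiratory chain and ATP synthase were followed in pancreatic beta cells lacking 1 or both of the transcription factors Foxo1 and Hnf4a. Genes were chosen by symbol: those beginning with Ndufa, Ndufb, Ndufc, Ndufs, Ndufv, Uqcr, Cox4i, Cox5, Cox6, Cox7, Cox8 or Atp5, together with Cyc1, Sdha, Sdhb, Sdhc and Sdhd, leaving out pseudogenes and the Ndufaf assembly factors. The deposited table held 86 such genes. A level limit of 0.5 FPKM, as the mean of 20 libraries, left 81 of them among 12455 genes tested. FPKM is a level in fragments, divided by gene length and library depth. By symbol, 38 of the 81 genes belonged to complex I, 4 to complex II, 9 to complex III, 13 to complex IV and 17 to complex V.

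Beta cells were sorted from islets of male mice aged 6 to 8 months on standard chow, and each of the 4 genotypes had 5 libraries. DKO mice carried floxed Foxo1 and floxed Hnf4a with RIP-Cre, a Cre recombinase driven by the rat insulin promoter. HKO mice carried floxed Hnf4a with RIP-Cre, IKO mice carried floxed Foxo1 with RIP-Cre, and WT mice are labelled wild type, without a list of their alleles. Sorting used a ROSA26-tomato reporter switched on by RIP-Cre, so collection relied on Cre activity. No label says whether libraries came from separate animals, so the p-values speak for the scatter among these libraries alone, part of which may be technical.

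The respiratory chain passes electrons taken from NADH (complex I) and succinate (complex II) through ubiquinone, complex III and cytochrome c to oxygen at complex IV, and complexes I, III and IV pump protons across the inner mitochondrial membrane. ATP synthase (complex V) lets the protons flow back and makes ATP. In beta cells the ATP made from glucose closes potassium channels, which starts insulin release. Most subunits are made in the cytosol from nuclear genes, while the mitochondrial genome encodes a small set of membrane subunits of complexes I, III, IV and V.

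Promoters of 4 of the genes are printed because they hold motifs of factors that textbook accounts place at nuclear respiratory genes. They come from RefSeq on GRCm38.p6 and run from 250 bases before the transcription start to 50 after it. Capitals mark GCATGCGC (NRF1, nuclear respiratory factor 1), CCGGAAGT (the ETS factor GABPA) or AAGATGGCG (YY1), each searched on both strands. Uqcr11 lies at chr10:80406772-80407071 (minus strand), Cox6a1 at chr5:115348909-115349208 (minus strand), Sdhb at chr4:140961021-140961320 (plus strand) and Ndufs7 at chr10:80249199-80249498 (plus strand).
Uqcr11: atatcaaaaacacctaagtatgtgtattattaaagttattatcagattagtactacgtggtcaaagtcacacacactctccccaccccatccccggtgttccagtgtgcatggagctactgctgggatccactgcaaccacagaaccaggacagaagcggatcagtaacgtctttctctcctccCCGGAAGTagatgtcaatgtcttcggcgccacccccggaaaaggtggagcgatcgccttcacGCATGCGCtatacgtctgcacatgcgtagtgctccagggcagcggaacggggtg
Cox6a1: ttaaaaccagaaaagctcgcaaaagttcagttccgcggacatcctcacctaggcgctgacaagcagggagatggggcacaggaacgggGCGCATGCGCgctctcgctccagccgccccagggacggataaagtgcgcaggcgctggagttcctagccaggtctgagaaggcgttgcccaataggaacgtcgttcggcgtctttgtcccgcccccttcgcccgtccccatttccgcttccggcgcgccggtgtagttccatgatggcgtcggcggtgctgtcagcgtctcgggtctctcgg
Sdhb: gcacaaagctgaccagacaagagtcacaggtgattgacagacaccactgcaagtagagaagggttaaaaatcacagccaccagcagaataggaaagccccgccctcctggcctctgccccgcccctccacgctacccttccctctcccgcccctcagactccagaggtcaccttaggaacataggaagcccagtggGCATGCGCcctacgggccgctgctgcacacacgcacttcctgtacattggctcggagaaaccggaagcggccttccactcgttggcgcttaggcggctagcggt
Ndufs7: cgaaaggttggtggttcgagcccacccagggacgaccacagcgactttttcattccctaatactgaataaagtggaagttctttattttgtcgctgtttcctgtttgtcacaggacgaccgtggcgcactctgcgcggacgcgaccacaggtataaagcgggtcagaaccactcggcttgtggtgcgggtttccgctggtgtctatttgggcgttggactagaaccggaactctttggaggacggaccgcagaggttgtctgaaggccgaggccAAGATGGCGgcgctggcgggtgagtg
The Uqcr11 promoter held the GABPA motif at base 185 and the NRF1 motif at base 247, counted from 1 at the 5′ end. In Cox6a1 the NRF1 motif was read at bases 89 and 91, once on each strand, so both matches overlap. Sdhb held it at base 197, and Ndufs7 held the YY1 motif at base 275, after the start.

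RefSeq promoters matched 64 of the 81 genes, in 69 windows. The NRF1 motif stood in the windows of 10 genes (15.6%), against 6.39% of tested genes with a promoter in the table and 2.71% of all 32851 mouse promoters. The YY1 motif stood in those of 7 genes (10.9%, against 3.78% of tested genes and 1.4% of all promoters). The GABPA motif stood in those of 5 genes (7.81%, against 9.45% and 3.89%), so its share was not higher than among tested genes. GTAAACA, the core read by forkhead factors such as Foxo1, stood in the window of 1 gene, Cox7a2 (1.56%, against 3.06% and 3.65%). The Hnf4a motif CAAAGTCCA stood in 0 of the 69 windows (against 0.435% and 0.475%). The shares of all promoters count windows, while the other percentages count genes. By window, the 69 held the NRF1 motif in 14.5%, YY1 in 10.1%, GABPA in 7.25% and GTAAACA in 1.45%. These letter matches describe the windows and do not show binding.

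Library depth ranged from 22.6 to 34.7 M reads. Foxo1 averaged 1.4 ± 0.263 FPKM in DKO, 5.97 ± 1.84 in HKO, 1.11 ± 0.46 in IKO and 6.64 ± 1.48 in WT libraries (SD, n = 5 each). Hnf4a averaged 3.99 ± 0.341 FPKM in DKO, 3.82 ± 0.355 in HKO, 5.39 ± 1.02 in IKO and 5.56 ± 0.86 in WT, and its whole-gene value includes exons outside the floxed part. The log2 fold change of Foxo1 was −2.18 in IKO against WT (limma adjusted p = 3.42e-05) and −1.9 in DKO against WT (2.74e-05). That of Hnf4a was −0.48 in HKO against WT (limma adjusted p = 0.063) and −0.43 in DKO against WT (0.0928). The Hnf4a decrease thus did not reach an adjusted p below 0.05. Insulin genes (Ins1 and Ins2) took 15.0 to 22.4% of reads in each library and 10 of 10 beta cell markers were above 0.5 FPKM. Markers of acinar cells, the enzyme-secreting cells of the exocrine pancreas, were also present, 18 of 19 above 0.5 FPKM. Their summed level ranged from 174 to 1552 FPKM in DKO, 425 to 1627 in HKO, 26.8 to 235 in IKO and 40.8 to 273 in WT libraries, and Amy2a5 was at 0 in at least 1 library. Alpha cell markers summed to 314 to 1584 FPKM across all libraries, and fibroblast markers to 0.196 to 3.12 FPKM. Within each genotype, replicates 1 and 2 were close to each other, as were replicates 4 and 5, and replicate 3 stood apart from both pairs. These 3 library sets are kept in view below.

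Respiratory genes were among the more abundant transcripts of the sorted cells. Their median level was 97.9 FPKM, against 9.12 FPKM for all genes tested. At 50 FPKM or more stood 69 of the 81, against 10.6% of all genes tested, and 62 ranked within the 1000 most abundant tested genes of WT cells. The 81 genes together held 0.778 to 0.91% of the reads of a library. The 2 genes just inside the level limit were Cox7a1 (1.56 FPKM), the muscle form of a complex IV subunit, and Ndufa4l2 (1.69 FPKM), known as a hypoxia-induced relative of Ndufa4. The 5 below it were tissue forms of complex IV subunits: Cox4i2 (0.305 FPKM), Cox6b2 (0.185), Cox7b2 (0.162), Cox8b (0.095) and Cox8c, which was listed at 0 in each library.

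**Figure D1:**
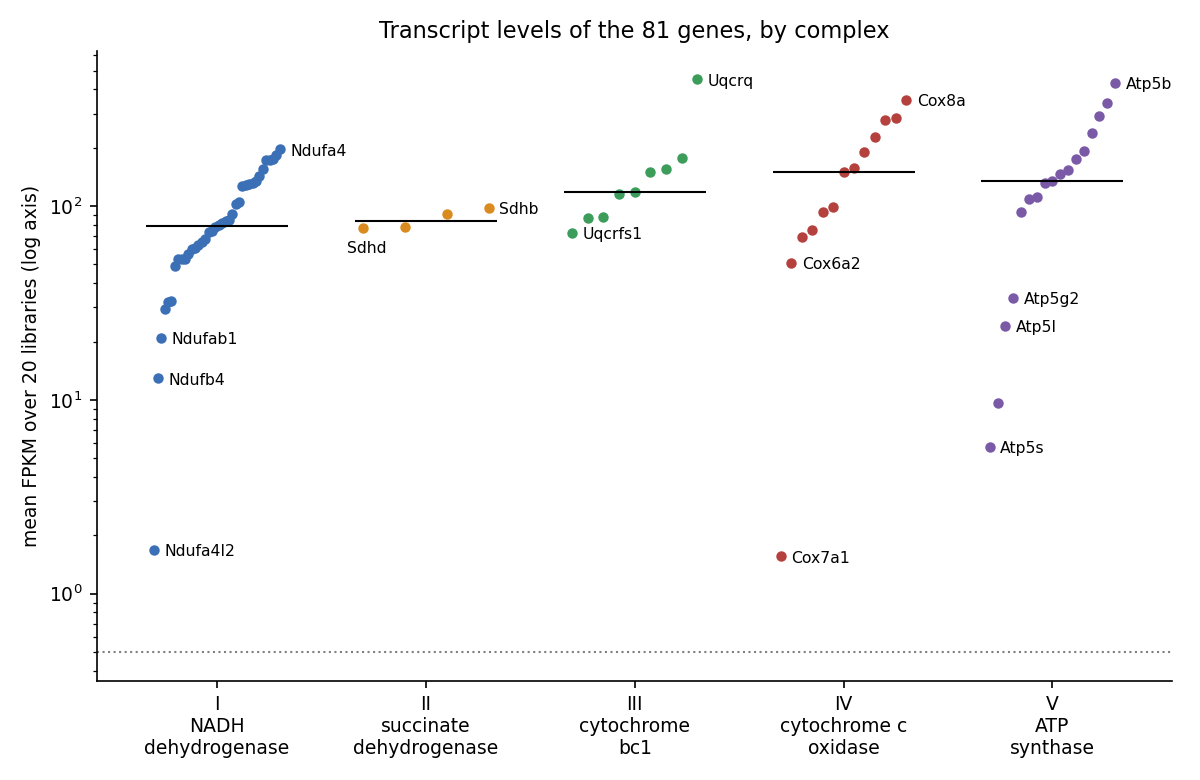
Mean FPKM of each of the 81 genes over 20 libraries (log axis), by complex. Each point is a gene, black bars are the medians of a complex (78.7, 84.2, 118, 150 and 134 FPKM for I to V) and the dotted line is the 0.5 FPKM limit.

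None of the 81 genes passed the test in any comparison between genotypes. With limma on log2(FPKM + 0.5) and Benjamini-Hochberg adjustment over 12455 genes, 0 of 81 reached an adjusted p below 0.05 in DKO against WT, where 1.2% of all genes did. The count was also 0 in HKO against WT (0.787% of all genes), in IKO against WT (0.0241%), in DKO against HKO (0.00803%) and in DKO against IKO (1.11%). It was 0 too in the interaction, the DKO minus HKO difference less that of IKO minus WT, which compares loss of Foxo1 without Hnf4a and with it (0.00803% of all genes). At an unadjusted p below 0.05 stood 1 gene in DKO against WT (1.23%, against 8.01% of all genes), 2 in HKO against WT (2.47%, against 7.07%) and 3 in IKO against WT (3.7%, against 4.3%). Such counts were 1 gene each (1.23%) in the interaction (4.42% of all genes), in DKO against HKO (3.69%) and in DKO against IKO (10.2%). Limma's voom on the reads recovered from the FPKM values also passed 0 of 81 in each comparison, with 1 gene at an unadjusted p below 0.05 in DKO against WT, 2 in HKO against WT, 3 in IKO against WT and 1 in each of the others.

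The intervals set bounds on what could have gone unseen. The 95% interval of the fold change lay wholly within 1.5-fold in either direction for 81 of 81 genes in DKO against WT, 77 in HKO against WT and 81 in IKO against WT. It did so for 79 genes in DKO against HKO, for 80 in DKO against IKO and for 74 in the interaction. As shares of the 81 genes these were 100, 95.1, 100, 97.5, 98.8 and 91.4%. Of all genes tested, 90, 91.2, 91.7, 91.7, 88.4 and 77.2% did so in the same order, so narrow intervals were common in the fit. The distance from the estimate to either bound had a median of 0.17 on the log2 scale, or 1.13-fold, in each comparison of a pair of genotypes, and of 0.24, or 1.18-fold, in the interaction. When close pairs of libraries were averaged into 1 sample each, the count within 1.5-fold was 80, 77, 79, 77, 78 and 67 in the same order. The median distance then was 0.24, or 1.18-fold, for each pair of genotypes and 0.34, or 1.27-fold, in the interaction. The narrower distances above take all 5 libraries of a genotype as independent. In bulk RNA, fewer cells of a type and less RNA per cell cannot be told apart.

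**Figure D2:**
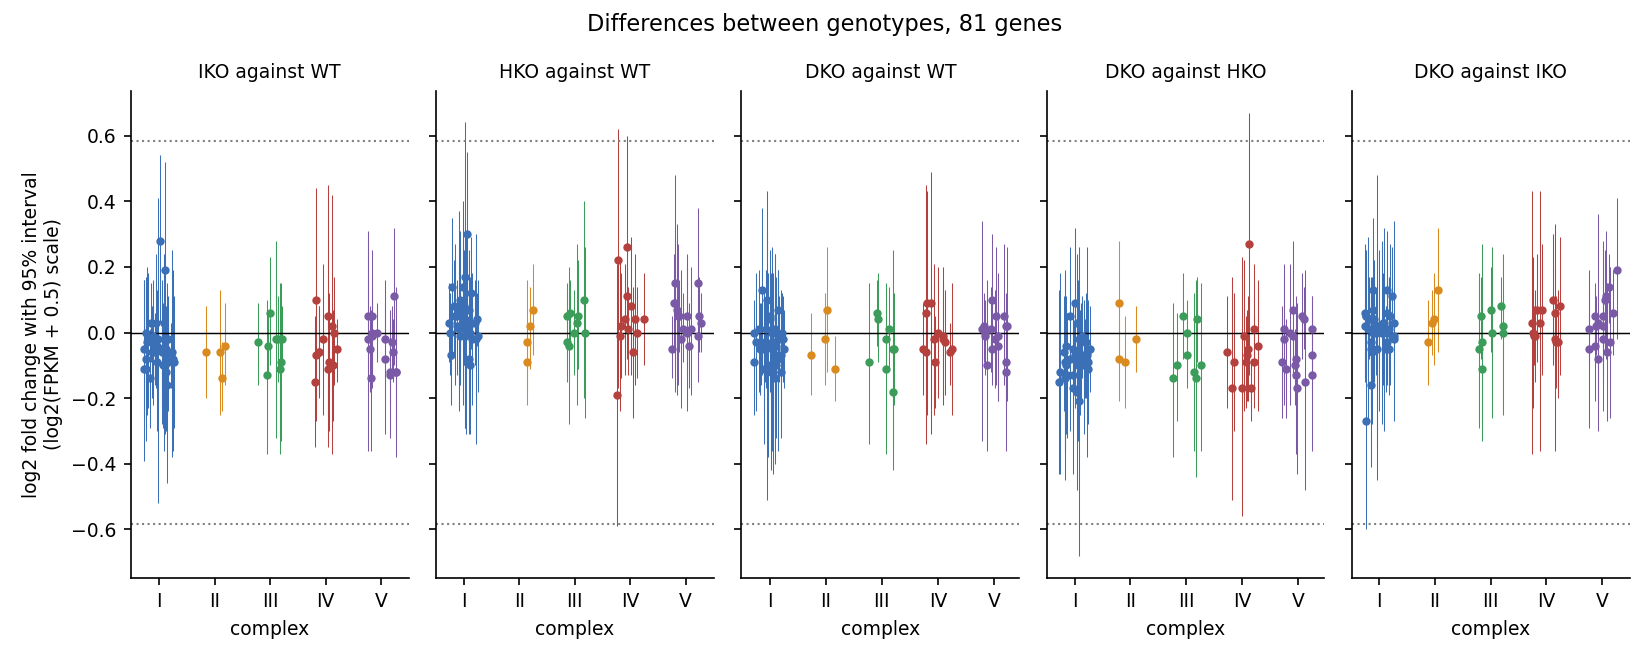
Log2 fold change (log2(FPKM + 0.5) scale) with its 95% interval for each of the 81 genes in 5 comparisons, grouped by complex. Points are genes, and dotted lines mark 1.5-fold higher and lower. Estimates ran from −0.27 to 0.30, and 0 genes passed in each panel.

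Fitted differences leaned to one side in some comparisons while staying small. The median log2 fold change of the 81 genes was −0.03 in DKO against WT, with 24 above 0, where 56.4% of all genes were. It was 0.04 in HKO against WT (57 above 0, 50.2% of all genes), −0.05 in IKO against WT (15 above 0, 56.9% of all genes) and −0.08 in DKO against HKO (14 above 0, 56.4% of all genes). DKO against IKO gave 0.02 (51 above 0, 51% of all genes) and the interaction −0.02 (33 above 0, 50.5% of all genes). The median of all genes tested lay between 0.00 and 0.02 in each comparison. Comparisons that share WT or DKO libraries are not independent of each other. Without the 3 libraries richest in acinar markers (HKO replicates 4 and 5 and DKO replicate 3), a choice made after seeing the data, the median in HKO against WT turned to −0.045, with 27 genes above 0. The median in DKO against HKO then was 0.003 with 42 above 0, that of the interaction was 0.063 against −0.02 with all libraries, and that in DKO against WT stayed at −0.028. Under quantile normalization the DKO against WT median was 0.001. With close pairs averaged into 1 sample each, the HKO against WT median was 0.004 with 42 above 0, beside 0.034 for all genes. In that fit DKO against WT gave −0.045 (19 above 0), IKO against WT −0.056 (13 above 0) and DKO against HKO −0.059 (17 above 0).

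Complex I, NADH dehydrogenase, is the entry point for electrons from NADH. Its 38 genes had a median of 78.7 FPKM and ran from Ndufa4l2 at 1.69 to Ndufa4 at 196 FPKM. The Ndufa4 protein, named after complex I, is now counted with complex IV. The median over the 38 genes averaged 76.4 ± 6.65 FPKM in DKO, 81.2 ± 7.57 in HKO, 74.3 ± 5.2 in IKO and 78.4 ± 8.32 in WT libraries (SD, n = 5 each). Ndufs1, an iron-sulfur subunit of the catalytic core, averaged 33.1 ± 1.57 FPKM in DKO, 32.3 ± 5.77 in HKO, 31.7 ± 1.75 in IKO and 31.1 ± 3.82 in WT (SD, n = 5 each), and its log2 fold change in DKO against WT was 0.10.

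Among the accessory subunits, Ndufc2, a small protein of the membrane arm, had the largest estimates. It lies at chr7:97400003-97407802 (mm10, plus strand) and overlaps Gm16053 on the same strand, so their reads may have been mixed. In DKO libraries 1 to 5 it stood at 87.6, 92.4, 91.1, 112 and 104 FPKM. HKO libraries had 95.1, 98.6, 102, 121 and 136 FPKM, IKO libraries 104, 97.2, 96.2, 125 and 123 FPKM, and WT libraries 79.2, 69.7, 109, 91.4 and 101 FPKM. All 4 groups overlapped, and WT replicates 1 and 2 were the lowest of the 20 libraries. The log2 fold change was 0.30 in HKO against WT (95% interval 0.04 to 0.55, limma adjusted p = 0.523). For IKO against WT it was 0.28 (0.03 to 0.54, unadjusted p = 0.0323 by limma), which was far from passing after adjustment. In the interaction it was −0.45 (−0.81 to −0.09, limma adjusted p = 0.989), the lowest of the 81. In replicate 3 the difference pointed the other way, at −0.10 for HKO against WT and −0.18 for IKO against WT.

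Ndufa12, an accessory subunit near the NADH-oxidizing end, averaged 51.1 ± 3.61 FPKM in DKO and 56.6 ± 6.21 in WT libraries (SD, n = 5 each), a log2 difference of −0.14 (−0.30 to 0.01, limma adjusted p = 0.677). Ndufa10, a membrane-arm subunit related to nucleoside kinases, had the smallest spread of the 81 within genotypes, with an SD of 0.0356 on the log2 scale. It averaged 52.5 ± 1.45 FPKM in DKO and 55.1 ± 1.58 in HKO libraries (SD, n = 5 each), and the difference of −0.07 (−0.15 to 0.01) had a limma adjusted p of 0.990. Ndufv3, a small subunit of the NADH-binding module, averaged 58.8 ± 3.1 FPKM in DKO, 61.8 ± 5.22 in HKO, 60.9 ± 5.81 in IKO and 61.0 ± 3.15 in WT (SD, n = 5 each). Ndufa4l2 stood at 3.22 FPKM in IKO replicate 4 and at 1.09 to 2.12 FPKM in the other 19 libraries. Its DKO against IKO difference was −0.27 (−0.60 to 0.05, limma adjusted p = 0.588).

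Complex II, succinate dehydrogenase, also works in the citric acid cycle and is made wholly from nuclear genes. Sdha, the flavoprotein that oxidizes succinate, averaged 81.2 ± 4.3 FPKM in DKO, 76.7 ± 9.99 in HKO, 74.7 ± 8.91 in IKO and 77.7 ± 6.88 in WT (SD, n = 5 each). Sdhb, the iron-sulfur subunit, averaged 94.9 ± 6.08 FPKM in DKO, 100.4 ± 5.48 in HKO, 96.9 ± 7.79 in IKO and 99.3 ± 5.37 in WT. Sdhc, a membrane anchor, averaged 89.8 ± 7.91 FPKM in DKO, 95.4 ± 6.14 in HKO, 87.3 ± 6.89 in IKO and 90.8 ± 4.0 in WT. Over all libraries the 4 subunits averaged between 76.6 (Sdhd) and 97.9 FPKM (Sdhb).

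Sdhd, the other membrane anchor, was the gene of smallest unadjusted p in DKO against WT and in IKO against WT. Its levels were 73.0, 74.1, 75.9, 78.2 and 74.1 FPKM in DKO, and 77.6, 76.1, 74.5, 74.2 and 79.3 FPKM in HKO. IKO libraries had 76.8, 73.1, 80.4, 71.0 and 68.0 FPKM, and WT libraries had 75.9, 84.3, 82.0, 78.2 and 85.1 FPKM. The median was 74.1 FPKM in DKO, 76.1 in HKO, 73.1 in IKO and 82.0 in WT, and each knockout group overlapped WT. The log2 fold change was −0.11 in DKO against WT (−0.21 to −0.01, limma adjusted p = 0.522), −0.09 in HKO against WT (−0.19 to 0.01, adjusted p = 0.855) and −0.14 in IKO against WT (−0.24 to −0.03, adjusted p = 0.921). Its difference was below 0 in all 3 library sets for DKO, HKO and IKO against WT, and the same WT libraries served each comparison.

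Complex III, cytochrome bc1, takes electrons from ubiquinol to cytochrome c. Uqcrq, a small subunit lying against cytochrome b, was the most abundant of the 81 genes at 450.4 FPKM, and averaged 434 ± 79.3 FPKM in DKO, 481 ± 97.2 in HKO, 440.1 ± 58.4 in IKO and 447 ± 68.4 in WT (SD, n = 5 each). Uqcrfs1, the Rieske iron-sulfur protein, was the lowest of the 9 at 72.4 FPKM. For the 4 core and electron-carrying subunits (Uqcrc1, Uqcrc2, Cyc1 and Uqcrfs1), log2 fold changes lay between −0.05 and 0.06 in DKO against WT, between 0.00 and 0.06 in HKO against WT and between −0.04 and 0.06 in IKO against WT. The 5 small subunits ranged from −0.18 to 0.01 in DKO against WT. The lowest of these was Uqcr10, at 145 ± 19.7 FPKM in DKO and 164 ± 17.4 in WT (SD, n = 5 each), with a difference of −0.18 (−0.42 to 0.05, limma adjusted p = 0.789).

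Complex IV, cytochrome c oxidase, has subunits that come in paired forms, one general and one of particular tissues, and the general forms made up nearly all of the message in these cells. Cox4i1 was at least 99.7% of the Cox4i sum in each library, Cox8a at least 99.9% of the Cox8 sum and Cox6b1 at least 99.8% of the Cox6b sum. Cox7b was at least 99.5% of its pair, and Cox7a1 at most 1.05% of the Cox7a sum. Cox8a was the most abundant at 352 FPKM. The 10 leading forms lay between −0.09 and 0.06 on the log2 scale in DKO against WT, between −0.06 and 0.22 in HKO against WT and between −0.15 and 0.02 in IKO against WT.

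Cox6a2, known as the heart and skeletal muscle form, was the exception, with a mean of 50.7 FPKM and 11.4 to 20.9% of the Cox6a sum. It stood at 63.7, 68.3, 37.4, 42.9 and 40.2 FPKM in DKO libraries 1 to 5, at 69.2, 66.0, 51.1, 48.7 and 45.2 in HKO, at 43.4, 44.5, 60.4, 51.7 and 49.2 in IKO and at 44.4, 48.5, 58.4, 41.0 and 40.3 in WT. In DKO and HKO, replicates 1 and 2 were the highest of their groups, while in IKO and WT replicate 3 was. Within replicates 1 and 2 the log2 difference was 0.50 for DKO against WT and 0.54 for HKO against WT. It was −0.63 and −0.19 within replicate 3, and 0.03 and 0.20 within replicates 4 and 5. Over all libraries the difference was 0.09 in DKO against WT (−0.25 to 0.43, limma adjusted p = 0.960) and 0.26 in HKO against WT (−0.08 to 0.60, adjusted p = 0.937). Cox6a2 overlaps Itgad on the opposite strand.

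Cox7a2l, whose protein ties complex III to complex IV in supercomplexes, had the smallest unadjusted p of the 81 in any comparison. It lies at chr17:83501918-83517330 (mm10, minus strand). Its levels were 67.1, 69.0, 68.8, 62.5 and 64.9 FPKM in DKO, 69.9, 73.5, 77.2, 78.4 and 76.3 in HKO, 69.9, 67.4, 67.6, 67.1 and 62.6 in IKO, and 67.8, 70.6, 71.0, 67.1 and 70.6 in WT. Each HKO library lay above each DKO library. DKO against HKO gave a log2 fold change of −0.17 (−0.27 to −0.08, a level 0.886 times as high), with an unadjusted p of 0.000851 and an adjusted p of 0.732 by limma. HKO against WT gave 0.11 (0.02 to 0.20, limma adjusted p = 0.493), with 0.05 in replicates 1 and 2, 0.12 in replicate 3 and 0.17 in replicates 4 and 5.

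**Figure D3:**
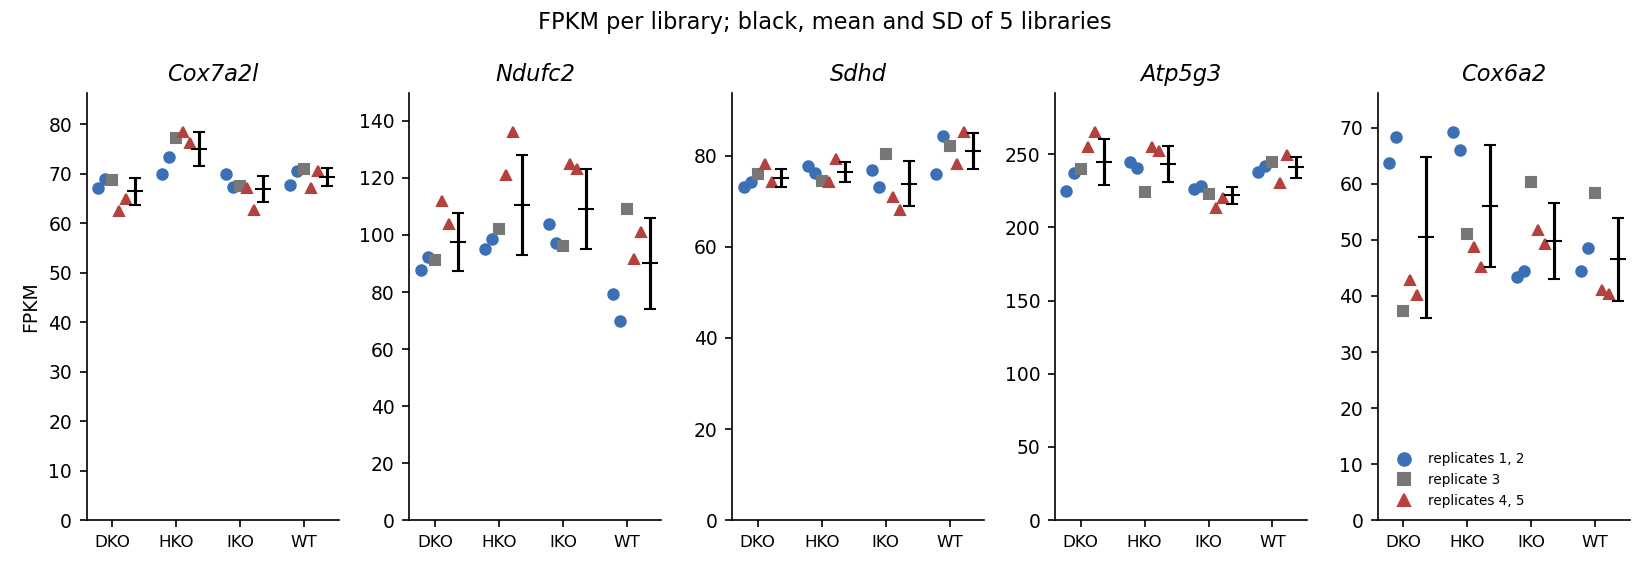
FPKM of Cox7a2l, Ndufc2, Sdhd, Atp5g3 and Cox6a2 in each of 20 libraries, by genotype, with black bars for the mean and SD of 5 libraries. Circles are replicates 1 and 2, squares replicate 3 and triangles replicates 4 and 5, and in Cox6a2 the DKO and HKO circles lie above the other symbols of their groups.

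Complex V, ATP synthase, turns proton flow into ATP through a catalytic F1 head and a membrane-bound rotor ring. Atp5b, the catalytic beta subunit, was the second most abundant of the 81 genes and one of the steadiest. It averaged 439 ± 12.2 FPKM in DKO, 426 ± 25.3 in HKO, 423 ± 4.44 in IKO and 439.7 ± 5.71 in WT (SD, n = 5 each), and its 95% interval in DKO against WT ran from 0.934-fold to 1.07-fold. The 5 genes of the F1 head lay between −0.09 and 0.01 on the log2 scale in DKO against WT, between −0.05 and 0.15 in HKO against WT and between −0.06 and 0.00 in IKO against WT. In the stalk that holds the head still, Atp5o (OSCP) averaged 108 ± 1.99 FPKM in DKO and 116 ± 7.21 in HKO (SD, n = 5 each), a difference of −0.10 (−0.22 to 0.01, limma adjusted p = 0.990). Its symbol matches 2 annotated genes, and the 1 placed overlaps Donson, Cryzl1, Gm25245 and the other Atp5o gene on the same strand. Reads of these genes may have been mixed.

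The rotor ring is built of subunit c, a single mature protein encoded by 3 genes. Atp5g3 supplied 52.1 to 61.8% of the summed FPKM, Atp5g1 30.8 to 39.6% and Atp5g2 7.21 to 9.4%. The sum averaged 421 ± 37.9 FPKM in DKO, 434 ± 39.1 in HKO, 398 ± 8.28 in IKO and 415 ± 20.5 in WT (SD, n = 5 each). Atp5g3 stood at 225, 237, 240.2, 255 and 265 FPKM in DKO and at 226, 228, 223, 213 and 219.9 in IKO. HKO had 245, 240.3, 224, 255 and 252 FPKM, and WT had 238, 242, 245, 230.1 and 249.8 FPKM. IKO libraries were the lowest as a group, and all 5 lay below all 5 WT libraries, while the ranges of DKO and IKO met at their edges. DKO against IKO gave 0.14 (0.03 to 0.24, limma adjusted p = 0.295), the smallest adjusted p of the 81 genes in any comparison. IKO against WT gave −0.12 (−0.22 to −0.01, unadjusted p = 0.0319 by limma), which was far from passing after adjustment.

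Atp5l, subunit g of the membrane sector, averaged 25.3 ± 2.28 FPKM in DKO and 22.3 ± 4.1 in IKO (SD, n = 5 each), a difference of 0.19 (−0.02 to 0.41, limma adjusted p = 0.550). The mouse annotation holds 9 near-identical copies of its transcript (at least 95% identity over at least 200 bases), so its level is uncertain, and 24 of 80 genes searched had at least 1 such copy. Among these were Atp5o (2 copies), Cox7a2l (1 copy) and Ndufa12 (1 copy). Atp5s, a coupling factor, and Atp5sl, known in human cells as an assembly factor of complex I, were the lowest at 5.72 and 9.66 FPKM. Atp5s averaged 5.92 ± 0.848 FPKM in DKO and 5.47 ± 0.64 in WT, and Atp5sl 9.63 ± 1.08 in DKO and 9.27 ± 0.983 in WT (SD, n = 5 each).

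Within a genotype the 81 genes differed together between library sets. In replicates 4 and 5, against replicates 1 and 2, 53 of the 81 genes were higher in all 4 genotypes and 2 were lower in all 4, against 2246 higher and 4153 lower of the 12455 genes tested. The median log2 difference was 0.19 in DKO, 0.18 in HKO, 0.15 in IKO and 0.15 in WT for the 81 genes, and −0.05 over the genotypes for all genes. As a mean of the 4 genotypes it was largest for Ndufs5 (0.69), an iron-sulfur fraction subunit of complex I, at 1.04 in DKO, 0.68 in HKO, 0.61 in IKO and 0.42 in WT. Next by that mean came Cox7c (0.59), at 0.72 in DKO, 0.75 in HKO, 0.48 in IKO and 0.40 in WT, and Atp5e (0.49), at 0.47 to 0.50 in each genotype. Cox7c thus exceeded Ndufs5 in HKO. The 2 genes lower in all 4 were Sdha (−0.26) and Ndufs1 (−0.24), chosen for naming after their values were seen. Ndufs5 also had the widest spread within genotypes, with an SD of 0.388 on the log2 scale.

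Gene length moved with this difference. The 81 genes are short, with a median of 681 bases against 2738 for all genes tested. Genes under 600 bases had a median difference of 0.29 (33 genes, 30 above 0), those of 600 to 900 bases 0.16 (17 genes), those of 900 to 1500 bases 0.14 (18 genes) and those of 1500 bases or more 0.03 (13 genes). Other genes at 20 FPKM or more showed the same order, at 0.35, 0.24, 0.16 and −0.04. All genes tested gave 0.18, 0.19, 0.13 and −0.09, so there the shortest bin was not the highest. Across genes, Spearman's rho between length and the difference was −0.54 for the 81 and −0.54 for all genes tested, as a description, since genes share their libraries. Each bin of 600 bases or more holds under 20 of the respiratory genes.

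**Figure D4:**
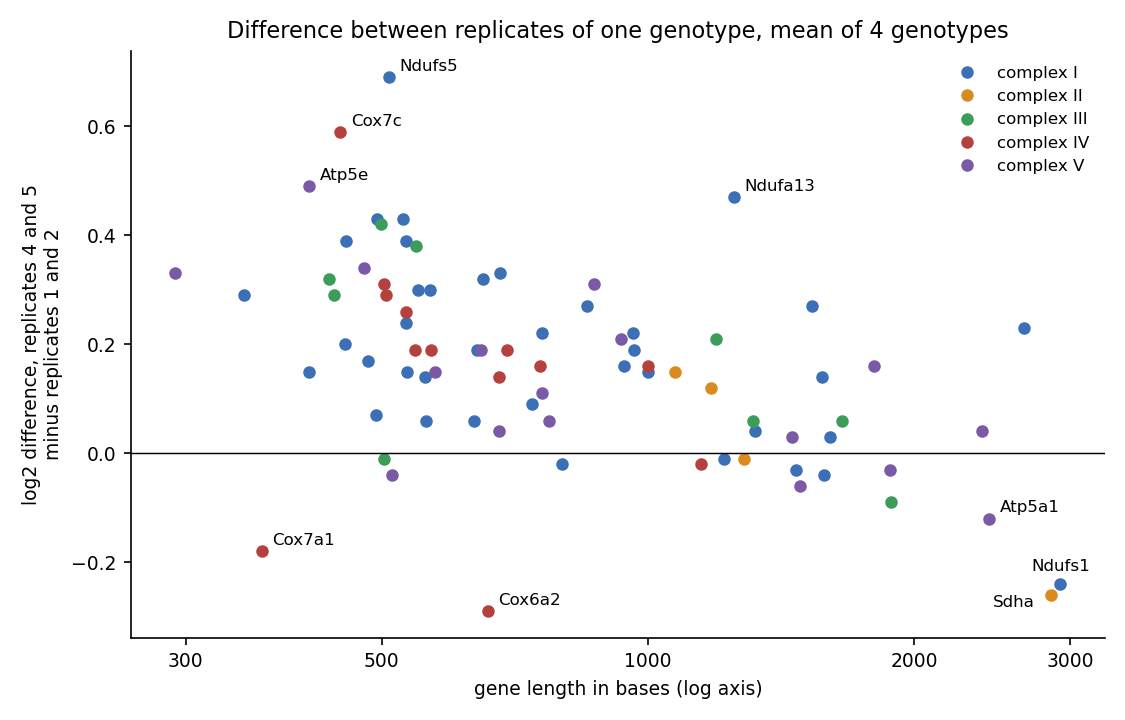
Log2 difference between replicates 4 and 5 and replicates 1 and 2 (mean of 4 genotypes) against gene length in bases (log axis) for the 81 genes, coloured by complex. Short genes lie mostly above 0, up to Ndufs5 at 0.69, and the longest, Sdha and Ndufs1, lie at −0.26 and −0.24.

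The share of insulin reads moved in the same direction as the 81 genes between these replicates. Insulin genes took 21.4 and 20.3% of reads in DKO replicates 4 and 5, against 16.3 and 16.4% in DKO replicates 1 and 2. In HKO they took 22.4 and 22.0%, against 19.2 and 19.6%, in IKO 18.8% or more, against 17.1 and 17.8%, and in WT 20.1 and 19.0%, against 16.0 and 17.9%. Replicate 3 differed by genotype: the 81 genes had a median deviation from their own means of −0.02 in DKO, −0.08 in HKO, 0.01 in IKO and 0.08 in WT. Insulin shares there were 18.2, 15.0, 19.8 and 22.4%, so both ranked the 4 genotypes alike. HKO replicates 4 and 5 had the highest median deviations of the 20 libraries (0.17 and 0.16) and summed acinar markers of 1595 and 1627 FPKM, against 464 and 469 FPKM in HKO replicates 1 and 2. The other genotypes had the opposite order of acinar markers, with 175 and 174 FPKM in DKO replicates 4 and 5, against 319 and 308, with 32.0 and 26.8 in IKO, against 173 and 176, and with 42.9 and 40.8 in WT, against 222 and 240.3. Summed markers of delta, PP and epsilon cells were higher in replicates 4 and 5 of every genotype, at 2054 and 1952 FPKM in DKO, against 1531 and 1495, at 3653 and 3639 in HKO, against 1493 and 1496, at 1456 and 1367 in IKO, against 1257 and 1270.1, and at 2761 and 2798 in WT, against 1353 and 1448. Summed ductal markers also moved with the 81 genes in every genotype, at 1768 and 1793 FPKM in DKO, against 1069 and 1066, at 1268 and 1271 in HKO, against 937 and 918, at 1399 and 1423 in IKO, against 666 and 658, and at 972 and 1026 in WT, against 743 and 790.3. Of the 6 ductal markers, 4 averaged 0.5 FPKM or more, and Sox9 and Cftr were at 0 in at least 1 library. The ductal sum thus rests on part of its list, and its relation to ductal cell content was not tested. Summed alpha cell markers (4 of 6 at that level) had no common direction. They were lower in replicates 4 and 5 of DKO (727 and 734 FPKM, against 1021 and 1021) and IKO (569 and 599, against 748 and 737). They were higher in those of HKO (1048 and 1046, against 879.8 and 859.7) and WT (1054 and 1146, against 935 and 934). The part of length, insulin share or the markers of these other cell types in the differences was not tested.

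**Figure D5:**
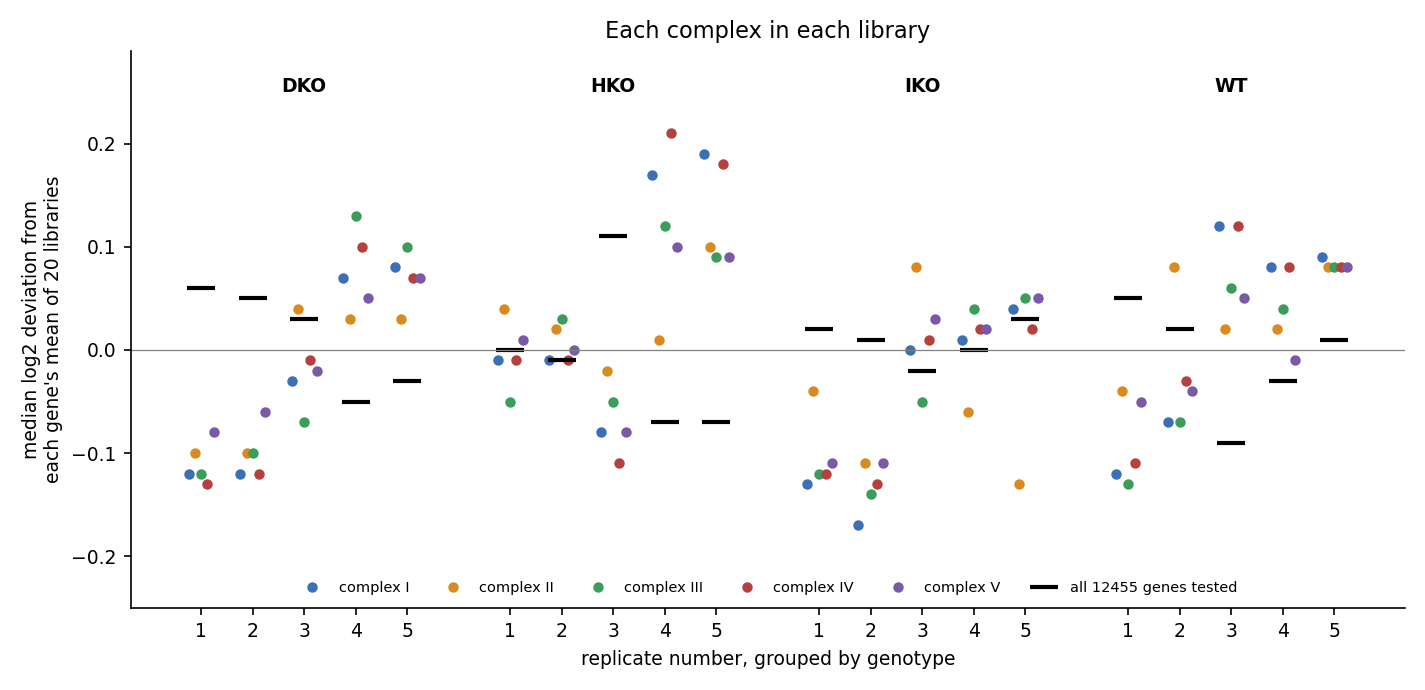
Median log2 deviation of the genes of each complex from their own mean over 20 libraries, for each library by genotype and replicate number. Coloured points are complexes I to V, black bars all 12455 genes tested, and in each genotype the complex I, III, IV and V points of replicates 4 and 5 lie above those of replicates 1 and 2.

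Comparisons by replicate number showed how much of each lean rested on 1 library set. Same-numbered libraries of different genotypes are not known to be matched, since the labels give no shared batch. For replicate 3, deviations from the group means correlated at −0.39 to 0.25 between genotypes. DKO against WT had a median over the 81 genes of −0.04 within replicates 1 and 2, −0.13 within replicate 3 and 0.01 within replicates 4 and 5. HKO against WT gave 0.08, −0.17 and 0.08, and IKO against WT gave −0.06, −0.08 and −0.06. Over all genes tested the medians in the same order of sets were 0.01, 0.11 and −0.02 in DKO against WT, −0.05, 0.20 and −0.06 in HKO against WT, and −0.03, 0.07 and 0.03 in IKO against WT. In DKO against WT, 18 of the 81 genes (22.2%) were lower in all 3 sets and 0 were higher, beside 11.1% lower and 17.8% higher of all genes tested. In IKO against WT, 31 (38.3%) were lower in all 3 sets and 0 were higher, beside 7.49% lower and 10.2% higher of all genes. HKO against WT had 4 higher (Atp5f1, Cox7a2l, Cyc1 and Uqcrfs1) and 4 lower, or 4.94% each, beside 9.78% higher and 7.68% lower of all genes. DKO against HKO had 1 higher (1.23%) and 12 lower (14.8%), beside 9.73% higher and 7.17% lower of all genes, and DKO against IKO had 14 higher (17.3%) and 8 lower (9.88%), beside 19.1% higher and 9.96% lower. Replicate 3 gives 1 library a group, so these within-set values carry no test.

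Other genes of oxidative metabolism did not pass either. Of 115 genes listed, 105 were tested and 0 passed in each of the 6 comparisons with limma, where 0.00803 to 1.2% of all genes did. At an unadjusted p below 0.05 stood 5 of the 105 in DKO against WT (8.01% of all genes), 5 in HKO against WT (7.07%) and 3 in IKO against WT (4.3%). Such counts were 0 in DKO against HKO (3.69% of all genes), 1 in DKO against IKO (10.2%) and 4 in the interaction (4.42%). The smallest adjusted p was 0.184, for Gpd2, the mitochondrial glycerol-phosphate dehydrogenase that brings cytosolic reducing power to the chain. Gpd2 averaged 14.2 ± 0.774 FPKM in DKO and 10.9 ± 1.12 in IKO (SD, n = 5 each), a log2 difference of 0.37. Fh1, fumarase of the citric acid cycle, averaged 159 ± 13.4 FPKM in DKO and 186 ± 16.8 in WT (−0.23, limma adjusted p = 0.377). Timmdc1, a complex I assembly factor, averaged 16.5 ± 0.624 FPKM in HKO and 14.2 ± 1.25 in WT (0.21, adjusted p = 0.502). Ucp2, an uncoupling protein linked to insulin release, averaged 47.3 ± 7.17 FPKM in IKO and 60.0 ± 1.53 in WT (−0.35, adjusted p = 0.678).

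By list, assembly factors of complex I (14 tested) had medians of −0.01 in DKO against WT, 0.02 in HKO against WT and 0.03 in IKO against WT. In the same order of comparisons, those of complex IV (17 of 18 tested) had 0.01, 0.07 and 0.01, those of complex III (6) −0.04, −0.01 and −0.02, and those of complex II (4) −0.01, 0.08 and −0.08. ATP synthase assembly and associated proteins (7) had −0.03, 0.06 and 0.02, and ubiquinone synthesis with cytochrome c (14) −0.04, −0.04 and 0.02. Citric acid cycle genes (13) had 0.02, −0.03 and −0.03, and ATP export, uncoupling and shuttles (12 of 13) 0.02, −0.02 and −0.01. The regulators of mitochondrial gene expression (12 of 14) had 0.02, 0.02 and 0.03. Nrf1, whose motif was searched above, averaged 8.51 ± 0.838 FPKM in DKO, 9.27 ± 0.722 in HKO, 9.68 ± 1.34 in IKO and 9.69 ± 0.438 in WT, and Ppargc1a, a coactivator of respiratory genes, was below the limit at 0.304 FPKM (SD, n = 5 each).

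Protein-coding genes of the mitochondrial genome gave larger estimates with far wider spread. Of 13, 7 were tested and 6 (ND3, ND4L, COX2, COX3, ATP6 and ATP8) had means of 0.0103 to 0.0583 FPKM, below the limit, although they encode core subunits of the same enzymes. How the authors' counting treated these 6 is not given in the sources used here, so their listed values are not read as expression and the values below rest on the other 7. The median log2 fold change was 0.35 in DKO against WT, 0.48 in HKO against WT and 0.09 in IKO against WT. The genes together took 3.02 ± 1.35% of reads in DKO, 3.08 ± 0.397% in HKO, 2.42 ± 0.726% in IKO and 2.21 ± 0.397% in WT libraries (SD, n = 5 each). COX1, a catalytic subunit of complex IV, averaged 6851 ± 2994 FPKM in DKO, 6983 ± 1078 in HKO, 5508 ± 1721 in IKO and 5021 ± 887 in WT (limma adjusted p = 0.886 in DKO against WT and 0.836 in HKO against WT). These genes took 1.7 and 1.83% of reads in DKO replicates 4 and 5, against 4.21 and 4.64% in DKO replicates 1 and 2. In IKO they took 1.53 and 1.74%, against 2.95 and 2.81%, in WT 1.72 and 2.08%, against 2.82 and 2.18%, and in HKO 3.4 and 3.42%, against 3.09 and 3.03%. Their order between these replicates was opposite to that of the nuclear genes in DKO, IKO and WT, and the same in HKO.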

How the data were processed

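For 20 libraries of sorted beta cells the authors deposited FPKM values, which are fragments scaled to gene length and to library depth, in 1 table. The labels' protocols describe directional poly-A libraries read as paired ends of 42 bases. The genome build mm10 and the tools DESeq2 1.14.1, featureCounts, STAR 2.5.2b and Subread 1.5.2 are listed in the submitters' processing notes, with no roles. Neither the gene annotation nor the use of strand in counting is stated there, so overlapping genes and near-identical copies are uncertain. Of 27179 table entries, 847 named NA and 27 carrying dates were left out, at 0.259 to 0.373% of reads per library.

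FPKM values were turned back into whole reads (within 0.02 reads for 100% of entries) to obtain depth (22.6 to 34.7 M reads) and for voom. Counting error is small at the levels of most of these genes, and the spread between libraries sets the precision. The 12455 genes averaging 0.5 FPKM or more entered limma 3.58.1 in R 4.3.3 as log2(FPKM + 0.5) (lmFit, contrasts.fit, eBayes with trend), with 1 mean per genotype, all 20 libraries sharing 1 spread, and Benjamini-Hochberg adjustment over all genes. Fold changes on this scale understate those of low genes. The script was tested on simulated data with independent libraries, so that test does not cover close pairs. Groups and replicate numbers come from the sample titles.

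Named with values were, in each comparison, the 3 genes of smallest unadjusted p, in each complex the highest and the lowest gene, genes near the level limit, paralogous forms and the complex II subunits. Other names were chosen after their values were seen. The 81 genes, the gene lists and the role groups were chosen with earlier results of these data known. Median fold changes and list counts are descriptions without a test. Within a genotype, replicates 1 and 2 and replicates 4 and 5 differed by a chi-square per degree of freedom of 1.25 to 2.38 (8 pairs, genes with 20 to 2000 reads) and all other pairs by 5.56 to 14.29 (32 pairs), where sampling noise gives about unity, so close pairs were also averaged or fitted as correlated. Promoters are RefSeq's on GRCm38.p6, gene positions are GENCODE M21's on mm10, and copies were sought with blastn 2.17.0. Alternatives covered the filter, the pseudocount, scaling, close pairs, the replicate block, voom and leaving out libraries.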

Additional observations from a re-analysis of the deposited data

Results flagged for a closer look

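Of 167 sets of 5 libraries (a gene in a genotype), 5 had 1 library far from the other 4, and chance alone gives about 1 in 20. Atp5o stood at 104 FPKM in HKO replicate 3, against 116 to 121 in the other HKO libraries. Ndufa4 stood at 199.5 FPKM in HKO replicate 5, against 206 to 208. Sdhb stood at 90.1 FPKM in WT replicate 1, against 99.8 to 104 in the other WT libraries. The other 2 were genes below the level limit. Cox7b2 stood at 0.388 FPKM in IKO replicate 3, against 0.0626 to 0.0815, and Cox8b at 0.187 FPKM in IKO replicate 2, with 0 in the other 4.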

How the results depend on the processing

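In each of 6 comparisons, 0 of the 81 genes passed under any of 32 alternatives: another filter or pseudocount, scaling to equal medians, quantile normalization, only the groups compared, close pairs averaged or correlated, the replicate block, and 20 fits leaving out 1 library each, with voom and the fit without 3 acinar-rich libraries added after seeing the data. The smallest adjusted p of a gene in any of them was 0.0862, for Ndufc2 in HKO against WT with the replicate block. The median log2 fold change of the 81 genes, leaving out 1 library at a time, ranged from −0.060 to −0.001 in DKO against WT, 0.007 to 0.061 in HKO against WT and −0.078 to −0.026 in IKO against WT. It ranged from −0.109 to −0.051 in DKO against HKO, −0.015 to 0.045 in DKO against IKO and −0.051 to 0.012 in the interaction. The other medians across alternatives ran from −0.052 to 0.001, −0.045 to 0.047, −0.072 to −0.043, −0.11 to 0.003 and 0.005 to 0.038 in the first 5 of these comparisons.

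Counts over all genes moved more, and the cause was not tested. With close pairs averaged, 17 genes passed in DKO against WT (150 with all libraries), 5 in HKO against WT (98), 0 (3) in IKO against WT and 15 (138) for the DKO and IKO pair, and with close pairs correlated 42, 26, 1 and 26 in the same order. Without IKO replicate 3, DKO against IKO had 250 genes and IKO against WT had 29. Voom passed 157, 100, 1 and 133 in that order.

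Same-numbered replicates of different genotypes had correlated deviations for most numbers but not for each pair: correlations ran from 0.08 to 0.48 for replicate 1, 0.11 to 0.35 for replicate 2, −0.39 to 0.25 for replicate 3, 0.37 to 0.5 for replicate 4 and 0.28 to 0.45 for replicate 5. Of 20 libraries, 10 correlated best with a library of their own number. Since not every pair exceeded 0.1 and the labels give no shared litter, batch or day, the block was used as an alternative only. With the replicate block 263 genes passed in DKO against WT, 193 in HKO against WT, 1 in IKO against WT and 291 for DKO against IKO, with 0 of the 81 among them.

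Most of these genes are well covered, and the spread between libraries and the unknown independence of close pairs limit the precision. The interval counts within 1.5-fold for correlated pairs were 79 in DKO against WT, 77 in HKO against WT and 79 in IKO against WT.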
